A study of Mus musculus with 100 samples.

Results

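The 30 genes described here encode the proteins that bring pyruvate into mitochondria, turn it into acetyl-CoA or oxaloacetate, and oxidise it in the tricarboxylic acid (TCA) cycle, with the regulators of the first step and the aminotransferases of the malate-aspartate shuttle. The list names genes of a metabolic module and its rule uses no measured value, although it was drawn up with earlier results of these data known. All 30 were found when the Ensembl transcript rows of the deposited matrices were mapped to gene symbols, out of 32153 genes with a symbol, and all 30 passed the filter on low values (a mean of 10 normalised reads) in each of the 5 tables.

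Pyruvate crosses the inner mitochondrial membrane through a carrier made of Mpc1 and Mpc2. The pyruvate dehydrogenase complex (Pdha1, Pdhb, Dlat and Dld) converts it to acetyl-CoA; the kinases Pdk1 to Pdk4 phosphorylate and switch off this complex, and the phosphatases Pdp1 and Pdp2 switch it on again. Pdk4 is known as the fasting-responsive kinase, raised when fatty acids are the fuel. Pyruvate carboxylase (Pcx) makes oxaloacetate instead, and white fat cells are known for high levels of it because citrate leaves the mitochondria for fatty acid synthesis. Citrate synthase (Cs), isocitrate dehydrogenases, the oxoglutarate dehydrogenase complex (Ogdh, Dlst and Dld), succinyl-CoA synthetase (Suclg1 with Suclg2 or Sucla2), fumarase (Fh1) and malate dehydrogenase carry the cycle, while Aco1, Idh1, Mdh1 and Got1 are the cytosolic counterparts of mitochondrial enzymes.

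The series compared fat of mice in which the gene of Gps2, which acts in the NCoR/SMRT corepressor complex, was deleted in adipocytes with fat of wild-type mice. The knockout rests on floxed Gps2 alleles and a Cre recombinase driven by the adiponectin (Adipoq) promoter, which is active in adipocytes and not in the other cells of fat. Genotype stood only in the sample titles, since the strain label, Adipoq-Cre-Gps2flox/flox, was the same for every sample; libraries labelled knockout are called KO and those labelled wild type WT. In all, 99 of 100 samples were used, in 5 tables that were normalised separately.

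The CD table held KO and WT intra-abdominal fat at 19 weeks of age on normal chow (3 KO and 3 WT replicates). The HFD table held KO and WT intra-abdominal fat at 11 weeks of age, named for 4 weeks of high fat diet (4 KO and 4 WT). The Epi table (3 KO and 3 WT) and the Adipo table (2 KO and 3 WT) held whole intra-abdominal fat and adipocytes from that fat, both at 19 weeks of age and named for 12 weeks of that diet. The BA table held KO and WT inguinal fat at 8 weeks of age from the beta-adrenergic stimulation series (4 KO and 4 WT); no unstimulated inguinal fat was analysed here. Whether replicates are separate animals is not labelled, and p-values then cover just the spread among the samples at hand, which may be technical.

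Depth, the deleted gene and the makeup of the samples were looked at first. Recovered reads per replicate, summed over 1 chosen transcript per gene, ranged from 47644559 to 56537661 for CD, 41744438 to 63232066 for HFD, 29342792 to 58592862 for Epi, 36682257 to 44606824 for Adipo and 42705142 to 58450419 for BA. The lowest HFD and BA totals, both of WT 4, cover 3 of 4 libraries. The Gps2 transcript was not lower in KO than in WT in any table: its log2 change was 0.04 ± 0.18 (SE) for CD, 0.01 ± 0.10 for HFD, 0.12 ± 0.16 for Epi, 0.04 ± 0.13 for Adipo and 0.15 ± 0.17 for BA. No source at hand names the deleted exons, so this checks nothing and the genotype is that of the label. All 9 adipocyte markers listed stood at 50 normalised reads or more in every sample of all 5 tables. Marker genes of epididymis and testis summed to 154152 and 141924 normalised reads in CD KO 1 and KO 2 and to 43735 in CD WT 2, against 25.8 in CD KO 3 and 47.3 and 3.71 in CD WT 1 and WT 3. Of these 5 markers, 4 stood at 50 reads or more in CD KO 1 and KO 2, but just 1 in CD WT 2. In Epi they summed to 56195 and 17576 in KO 2 and KO 3, against 0 in KO 1 and 0.881 to 27.3 in WT. CD KO 1 and KO 2 also lay closer to each other than any other CD pair. Their chi-square per degree of freedom over genes was 2.46 to 3.28. It was 54.7 to 349 for the other CD pairs and 1.02 to 1.16 for repeat libraries of a replicate. The main test still counts KO 1 and KO 2 as 2 replicates. CD values that move by over 1.5 times without KO 1, KO 2 and WT 2 are given both ways for the members described below. That fit leaves KO 3 as the only KO sample.

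Levels of the members within a table were set beside each other as normalised reads per kilobase of transcript. Among WT samples pyruvate carboxylase led in 3 of the 5 tables: Pcx averaged 6909 ± 1515 normalised reads per kilobase in HFD WT fat (SD, n = 4), 18647 ± 3048 in Epi WT fat (n = 3) and 22743 ± 5340 in Adipo WT adipocytes (n = 3). In CD WT fat Mdh1, the cytosolic malate dehydrogenase, led at 3409 ± 380 per kilobase, and the mitochondrial Mdh2 and Pcx followed within the spread between replicates; Pcx there stood at 2599 ± 1038 (n = 3). In BA WT fat Pdhb led, with Mdh2 and Pcx next. The phosphatases Pdp1 and Pdp2 and the kinase Pdk3 were among the 4 lowest of the 30 in WT samples of each table, Pdp2 at 24.9 ± 6.51 and Pdp1 at 40.1 ± 4.74 per kilobase in HFD WT fat (n = 4).

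In fat after 4 weeks of high fat diet (HFD), 3 of 30 members fell in KO fat and 0 rose: the kinases Pdk4 and Pdk3, which inhibit pyruvate dehydrogenase, and Idh2, the mitochondrial NADP-dependent isocitrate dehydrogenase. Of all 13946 genes tested in HFD, 3.47% were called in either direction and 2.46% lower in KO (limma on log2(value + 1), Benjamini-Hochberg adjusted p under 0.05 over all genes), and 3 of 30 is a larger share than that background, with no test of the list itself. Of the 484 genes called, 141 were higher and 343 lower in KO; after TMM scaling the split was 217 higher and 311 lower, and the same 3 members fell. In whole fat, fewer cells of a type and less RNA per cell cannot be told apart.

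Pdk4 (ENSMUSG00000019577, chr6:5483351-5496309, minus strand, GRCm38) had 777, 766, 789 and 854 normalised reads in HFD KO fat, against 1523, 1395, 1171 and 1232 in HFD WT fat. The 4 KO samples lay close together and below all 4 WT samples. Pdk4 averaged 796 ± 39.3 in KO and 1330.1 ± 159 in WT (SD, n = 4 each), a log2 change of -0.73 ± 0.10 (SE; limma adjusted p = 0.00661). Its call held under all 18 alternatives tried, with log2 changes between -0.79 and -0.65 and limma or edgeR adjusted p between 0.00592 and 0.0299.

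Pdk3 (ENSMUSG00000035232, chrX:93764607-93832201, minus strand) is a far less abundant kinase of the same family. It had 137, 119, 121 and 114 normalised reads in HFD KO fat, against 207, 174, 157 and 219.9 in HFD WT fat, with no overlap between the groups. The log2 change was -0.62 ± 0.13 (SE; n = 4 each, limma adjusted p = 0.0361). The call was kept in 8 of 18 alternatives, with adjusted p up to 0.127, and the direction in all 18.

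Idh2 (ENSMUSG00000030541, chr7:80094846-80115392, minus strand) had 1896, 2419, 2216 and 1980.4 normalised reads in HFD KO fat, against 2855, 2935, 3170.0 and 3736 in HFD WT fat. The highest KO sample lay below the lowest WT sample. The log2 change was -0.58 ± 0.12 (SE; n = 4 each, limma adjusted p = 0.0343). Here too the call was kept in 8 of 18 alternatives, with adjusted p up to 0.127, and the direction in all 18. Only Pdk4 stayed called when KO 1, KO 3, KO 4, WT 2 or WT 4 was left out.

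**Figure D1:**
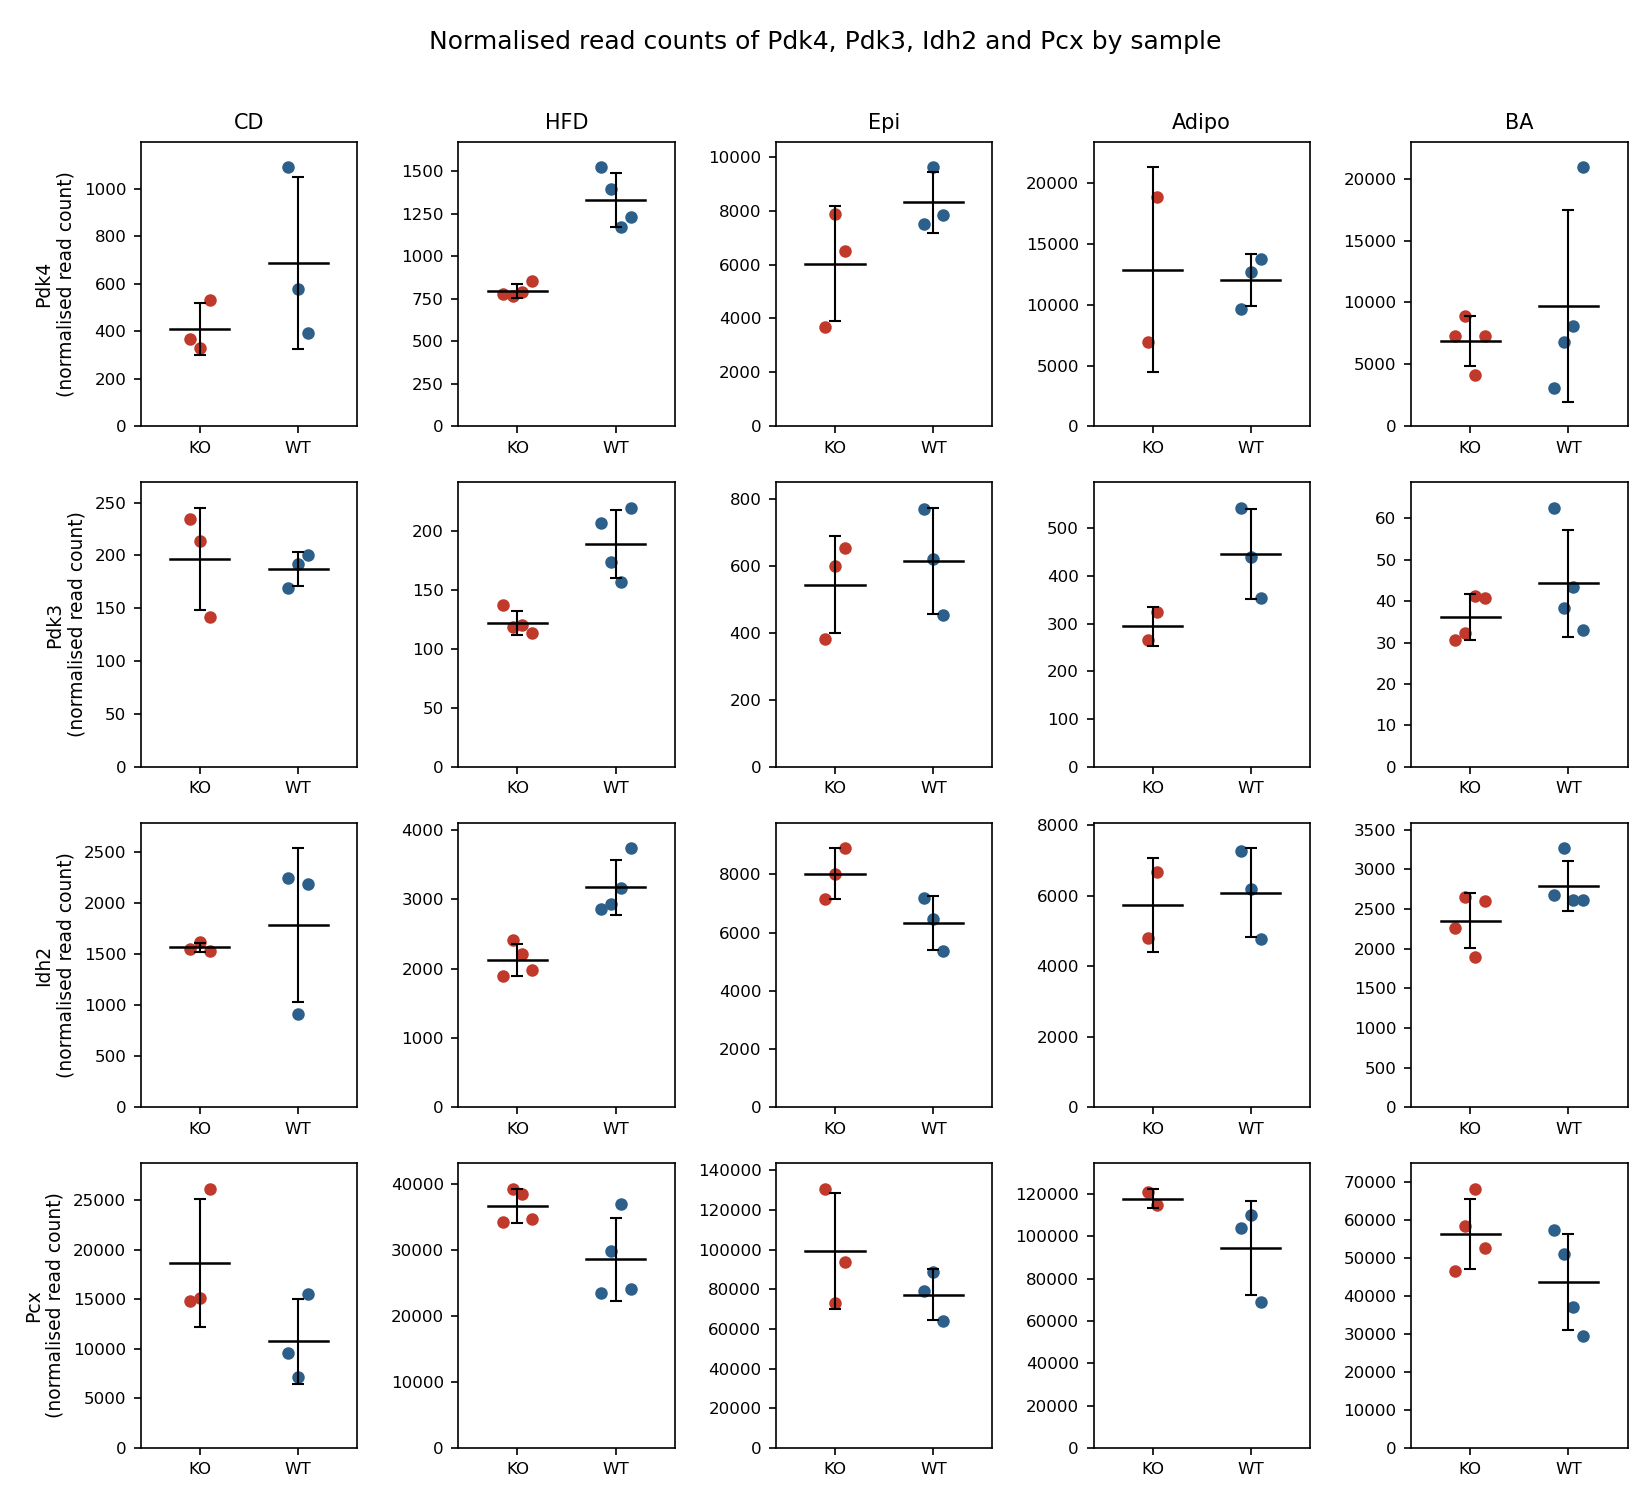
Normalised read counts (y axis, from 0) of Pdk4, Pdk3, Idh2 and Pcx in each KO (red) and WT (blue) sample of the 5 tables; lines are means and bars SD, and each panel has its own scale because the tables were normalised separately. In HFD the KO samples of Pdk4, Pdk3 and Idh2 all sit below the WT samples, with Pdk4 between 766 and 854 in KO and between 1171 and 1523 in WT.

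The start regions of these 3 genes are shown because they are the members that fell together. Each window runs from 250 bases before to 50 bases after the gene's start, on the gene's own strand (RefSeq, GRCm38.p6), with CG dinucleotides in capitals: Pdk4 at chr6:5496229-5496528 (12 CG, 60.7% G or C), Pdk3 at chrX:93832101-93832400 (35 CG, 68%) and Idh2 at chr7:80115301-80115600 (20 CG, 68.3%), all on the minus strand.
Pdk4: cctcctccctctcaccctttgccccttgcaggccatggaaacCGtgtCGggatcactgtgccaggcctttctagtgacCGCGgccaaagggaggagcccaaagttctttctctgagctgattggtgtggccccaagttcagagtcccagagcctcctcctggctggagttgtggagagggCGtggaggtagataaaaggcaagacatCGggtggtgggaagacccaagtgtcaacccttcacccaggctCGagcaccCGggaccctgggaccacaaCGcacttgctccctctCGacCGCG
Pdk3: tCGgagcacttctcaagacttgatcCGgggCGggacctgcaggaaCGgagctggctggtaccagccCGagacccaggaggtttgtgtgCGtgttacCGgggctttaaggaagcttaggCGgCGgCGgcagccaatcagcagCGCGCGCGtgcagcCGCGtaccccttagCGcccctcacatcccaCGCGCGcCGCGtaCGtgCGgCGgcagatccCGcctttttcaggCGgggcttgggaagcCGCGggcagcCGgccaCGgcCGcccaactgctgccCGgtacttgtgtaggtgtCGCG
Idh2: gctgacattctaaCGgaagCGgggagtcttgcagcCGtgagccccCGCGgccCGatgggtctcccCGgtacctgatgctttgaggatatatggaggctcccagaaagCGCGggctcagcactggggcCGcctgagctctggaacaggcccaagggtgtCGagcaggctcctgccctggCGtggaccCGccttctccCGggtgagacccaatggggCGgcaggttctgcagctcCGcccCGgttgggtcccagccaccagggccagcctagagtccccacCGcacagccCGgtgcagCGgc
Some genes have several windows, and the one with the most CG was taken for each gene. So counted, all 28 members with a window in the table (Pdp1 and Idh3a had none) held 10 or more CG, with a median of 21, against 45.8% of 27025 genes and a median of 8. Of the 6 members with several windows, 2 (Pdk1 and Pcx) also had one with fewer than 10 CG. The extended oestrogen-related receptor site TNAAGGTCA and the consensus site of NRF1, searched on both strands of every window, matched for 0 of 28 members; they matched for 1.43% and 1.07% of all genes. These letters are not in the windows shown, and nothing is drawn from that about either factor.

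The other members did not pass in HFD. On the pyruvate side, the carrier genes Mpc1 and Mpc2 had log2 changes of 0.21 ± 0.17 and -0.19 ± 0.19 (SE), and the 4 genes of the dehydrogenase complex between 0.08 (Pdha1) and 0.31 (Dlat). Pcx (ENSMUSG00000024892, chr19:4510472-4621752, plus strand) had 34264, 39307, 38535 and 34741 normalised reads in HFD KO fat, against 23488, 29914, 37039 and 24196 in HFD WT fat: 3 WT samples lay below all KO samples and WT 3 lay among them. Its log2 change was 0.38 ± 0.16 (SE, n = 4 each, limma adjusted p = 0.219). Idh3a and Idh3b, subunits of the NAD-dependent isocitrate dehydrogenase, lay on opposite sides of 0 without passing, Idh3a at -0.36 ± 0.15 and Idh3b at 0.40 ± 0.13; Idh3a was called only when WT 1 was left out (limma adjusted p = 0.0318). The remaining enzymes of the cycle and the shuttle had log2 changes from -0.22 (Got1) to 0.31 (Idh1), and Pdk1, Pdk2, Pdp1 and Pdp2 from -0.18 (Pdk2) to 0.14 (Pdk1). Exons of 4930506C21Rik overlap 27.9% of the Mpc1 transcript and those of Map3k15 21.2% of the Pdha1 transcript, and no source says if reads were assigned by strand, so the reads of such pairs cannot be told apart.

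Over the whole list in HFD, 21 members had a positive and 9 a negative log2 change, with a median of 0.09 beside -0.09 over all genes tested, of which 36.9% were positive. The 3 called members were also the only ones whose groups did not overlap (14.0% of all genes did not overlap). WT 1 was the lowest sample for 19 of 30 members, and its epithelial markers summed to 1491 normalised reads, against 134 to 381 in KO and 89.4 to 471 in the other WT samples; their part in the result was not tested.

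Cell type markers in HFD were as follows. The 9 adipocyte markers summed to 974109 to 1138913 normalised reads in HFD KO fat and 819781 to 1113281 in HFD WT fat, 5 of 9 being higher in KO. The 6 brown adipocyte markers summed to 199 to 316 in KO and 259.5 to 890.5 in WT, with 1 of 6 higher in KO and Ucp1 at 0 in KO 2. The 4 T cell markers summed to 43 to 75.6 in KO and 17.1 to 46.1 in WT, with 4 of 4 higher in KO. The 5 B cell markers summed to 86.7 to 474 in KO and 45.7 to 138 in WT. All 5 B cell markers were higher in KO. Mesothelial markers were higher in KO for 4 of 4, macrophage markers for 5 of 7 and stromal markers for 3 of 4, against 2 of 9 for skeletal muscle, 0 of 4 for endothelial and 0 of 5 for epithelial markers. The summed levels of each of these lists overlapped between KO and WT. The part of these differences in the lower Pdk4, Pdk3 and Idh2 was not tested.

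On chow (CD), no gene passed, so no member was called (0 of 15467 genes, 0%, by limma and 0 by edgeR). Without KO 3, whose removal leaves both KO samples with epididymal reads, 637 genes and 0 members were called. At an unadjusted p under 0.05 there were 2 members, Pdk1 and Suclg2, and 1487 genes, or 9.61% of all. Of the 30 members, 23 had a positive log2 change (61.7% of all genes did), with a median of 0.31 beside 0.11 over all genes. After TMM scaling, which moved the median of all genes by that same 0.11, 19 members were positive and their median was 0.19. In CD, 7 of 9 adipocyte, 4 of 4 T cell, 4 of 4 endothelial and 5 of 5 epithelial markers were higher in KO. So were 5 of 5 epididymal, 2 of 6 brown adipocyte and 3 of 9 skeletal muscle markers. For macrophage, B cell, stromal and mesothelial markers it was 0 of 7, 0 of 5, 0 of 4 and 0 of 4. Their part in the members' values was not tested.

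Pdk1 (ENSMUSG00000006494, chr2:71873224-71903858, plus strand), the kinase known as a target of hypoxia signalling, had 1359, 1312 and 1246 normalised reads in CD KO fat, against 488, 734 and 719 in CD WT fat. All 3 KO samples lay well above all 3 WT samples, with KO 1 and KO 2, which lay close together over all genes, counted as 2 of the 3. The part of epididymal reads in this was not tested. The log2 change was 1.04 ± 0.19 (SE, n = 3 each, limma adjusted p = 0.504). It was 1.07 when KO 1, KO 2 and WT 2 were left out, with KO 3 as the only KO sample. Dlat, Aco1 and Suclg2 were the other members whose groups did not overlap, all higher in KO; 4 of 30 compares with 12.4% of all genes.

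Got2 (ENSMUSG00000031672, chr8:95864134-95888547, minus strand), the mitochondrial aspartate aminotransferase of the malate-aspartate shuttle, had the largest log2 change of any member in CD, 1.85 ± 1.09 (SE, n = 3 each, limma adjusted p = 0.577). It had 3918, 3867 and 318 normalised reads in CD KO fat, against 347, 1046 and 283 in CD WT fat. The 3 high samples, KO 1, KO 2 and WT 2, had the most epididymal and epithelial reads of the table. In WT 2 just 1 of 5 epididymal markers reached 50 reads. Without these 3 samples, which leaves KO 3 as the only KO sample, the log2 change was 0.02. It was 3.05 ± 0.61 without KO 3. Exons of Gm45760 overlap 15% of the Got2 transcript.

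Pcx in CD had 14826, 15147 and 26159 normalised reads in KO fat, against 9591, 7198 and 15558 in WT fat: KO 3 stood apart, and KO 1 and KO 2 lay within the WT range. The log2 change was 0.82 ± 0.38 (SE, n = 3 each, limma adjusted p = 0.534). Pdhb, a subunit of pyruvate dehydrogenase, showed the same order, with 2814, 2801 and 5664 in KO and 1679, 1542 and 2822 in WT. Its log2 change was 0.87 ± 0.37, and 0.53 ± 0.30 without KO 3. Without KO 1, KO 2 and WT 2 it was 1.38, with KO 3 as the only KO sample. KO 3 was the highest CD sample for 18 of 30 members and WT 2 the lowest for 17, and their adipocyte markers averaged 16.00 and 14.24 on the log2(value + 1) scale, the highest and lowest of the table; the part of this in the members' values was not tested.

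Pdk4 in CD had 369, 328 and 534 normalised reads in KO fat, against 1091, 579.9 and 394 in WT fat, where WT 1 stood far above the rest. The log2 change of -0.65 ± 0.40 (SE, n = 3 each, limma adjusted p = 0.589) shrank to -0.25 ± 0.30 without WT 1 and was -0.99 ± 0.36 without WT 3. Pdk3 had 234, 213 and 142 in KO and 169, 192 and 201 in WT and Idh2 1553, 1617 and 1533 in KO and 2244, 913 and 2184 in WT, both overlapping, with log2 changes of 0.04 ± 0.23 and -0.07 ± 0.36. Without KO 1, KO 2 and WT 2, the log2 changes were -0.37 for Pdk3, -0.53 for Idh2 and -0.30 for Pdk4. Each of these rests on KO 3 as the only KO sample. WT 2 was far the lowest CD sample for Idh2, and without it alone the log2 change was -0.50 ± 0.11 (limma adjusted p = 0.346), against 0.15 ± 0.39 without WT 1 and 0.13 ± 0.40 without WT 3.

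**Figure D2:**
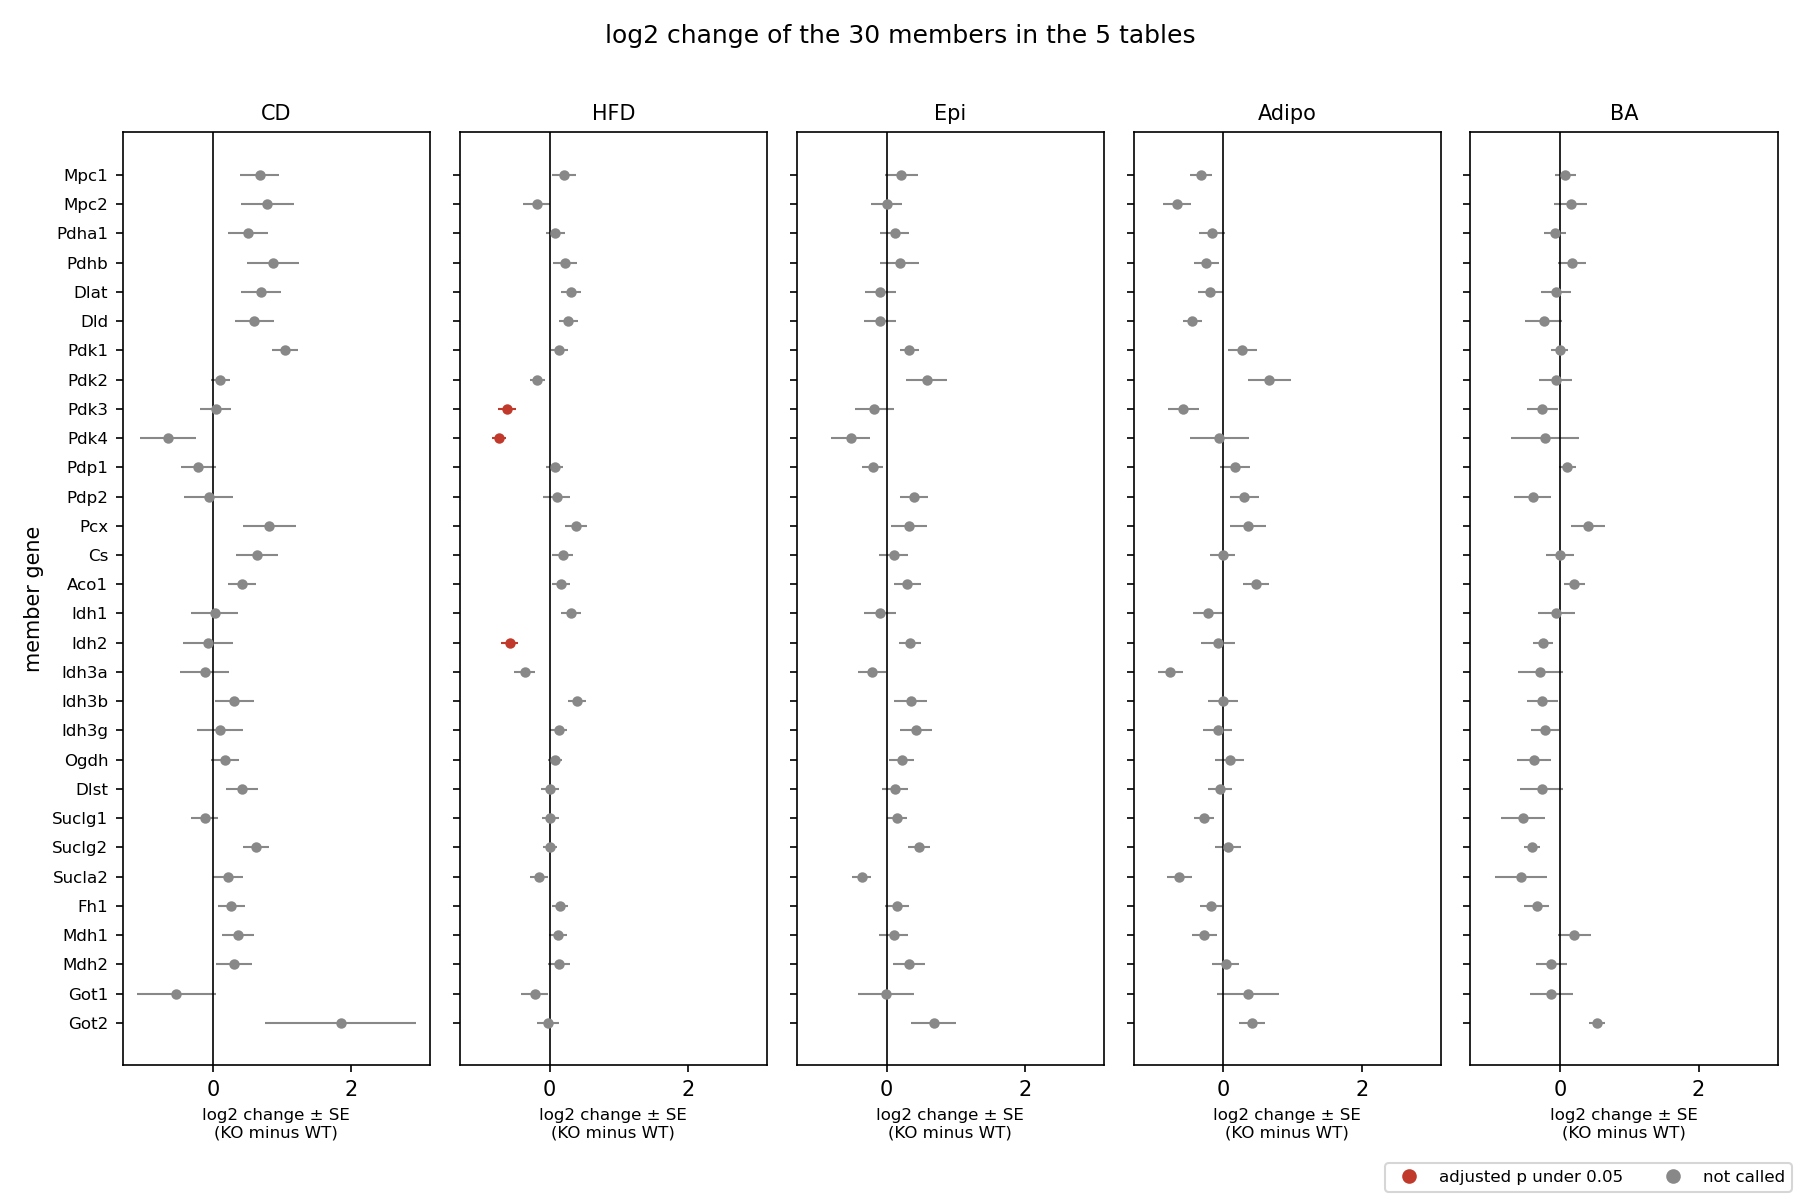
log2 change, KO minus WT, of each of the 30 members (rows, by role) in the 5 tables; bars are SE and red marks a limma adjusted p under 0.05. The 3 red points are Pdk3, Pdk4 and Idh2 in HFD, and the widest bar is Got2 in CD at 1.85 ± 1.09.

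After 12 weeks of high fat diet, whole fat (Epi) again gave no called gene (0 of 17513, 0%, by limma and 0 by edgeR; 1613 genes, 9.21%, at an unadjusted p under 0.05; 22 genes and 0 members were called by limma without KO 1). The 2 members among these were both subunits of succinyl-CoA synthetase. Suclg2, the GTP-forming subunit, had 2788, 2157 and 2761 normalised reads in Epi KO fat, against 1796, 2132 and 1617 in Epi WT fat. Sucla2, the ATP-forming subunit, had 6917, 6487 and 8025 in KO, against 8093, 10095 and 9404 in WT. Neither pair of groups overlapped, Suclg2 being higher and Sucla2 lower in KO (log2 change 0.47 ± 0.16 and -0.36 ± 0.14, SE, n = 3 each, limma adjusted p = 0.476 and 0.522); of all genes, 7.29% were separated upwards and 9.16% downwards in KO. KO 1, with 0 epididymal marker reads, lay on the same side as KO 2 and KO 3 in both. In Epi, 0 of 4 T cell markers were higher in KO, and every KO sum lay below every WT sum. It was 0 of 7 for macrophage, 1 of 5 for B cell and 1 of 6 for brown adipocyte markers. For stromal and mesothelial markers it was 1 of 4 each. Of adipocyte markers 7 of 9 were higher in KO, as were 3 of 4 endothelial and 5 of 9 skeletal muscle markers. So were 5 of 5 epithelial and 5 of 5 epididymal markers. The part of these lists in the members' values in Epi was not tested.

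In the same table Pdk4 had 3693, 7869 and 6509 normalised reads in KO fat, against 7489, 9603 and 7837 in WT fat, a log2 change of -0.52 ± 0.28 (SE, n = 3 each, limma adjusted p = 0.615). KO 2 lay among the WT samples, and without KO 1 the log2 change was -0.21 ± 0.17. Pdk2, the widely expressed kinase, had 6079.5, 5852 and 4542 in KO and 4926, 4305 and 2276 in WT, with WT 3 lowest (0.58 ± 0.30, and 0.24 ± 0.18 without it). Idh2 had 7145, 8023 and 8890.0 in KO and 7178, 6484 and 5354 in WT, just overlapping and here higher in KO (0.34 ± 0.16).

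Pcx in Epi had 130592, 73103 and 93999.6 normalised reads in KO fat, against 79271, 88922 and 63853 in WT fat, overlapping, with a log2 change of 0.33 ± 0.26 (SE), 0.11 ± 0.23 without KO 1 and 0.53 ± 0.25 without KO 2. Pdk3 overlapped as well, at 381, 598 and 652 in KO and 769, 620.4 and 453 in WT, with a log2 change of -0.18 ± 0.28 that ran from -0.38 to 0.06 as each replicate was left out. Got2 had 992, 2346 and 1132 in KO and 794, 798 and 1014 in WT. KO 2, with the most epididymal and epithelial reads of the table, stood highest, and without it the log2 change of 0.68 ± 0.33 became 0.30 ± 0.17. Over the list 20 members were positive and 10 negative (46.8% of all genes were positive), with a range from -0.52 to 0.68 and a median of 0.15 beside -0.03 over all genes.

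In adipocytes (Adipo), 90 of 14105 genes, or 0.638%, were called by limma and none of them was a member; edgeR called 125 genes and 0 members. At an unadjusted p under 0.05 there were 5 members (Mpc2, Dld, Pdk3, Idh3a and Sucla2), all lower in KO, beside 24.2% of all genes. With 2 KO samples only, 48.0% of all genes did not overlap between the groups, and 12 of 30 members did not: 8 lower in KO, against 27.3% of all genes, and 4 higher, against 20.8%. In all, 11 members were positive and 19 negative (46.7% of all genes were positive), with a median of -0.07 beside -0.04 over all genes.

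Idh3a (ENSMUSG00000032279, chr9:54586334-54604661, plus strand), the catalytic subunit of the NAD-dependent isocitrate dehydrogenase, had 9021 and 11314 normalised reads in KO adipocytes, against 15450.4, 18034 and 18499.6 in WT adipocytes. Both KO samples lay below every WT sample, and the log2 change was -0.77 ± 0.18 (SE, n = 2 and 3, limma adjusted p = 0.0975). Mpc2, a subunit of the pyruvate carrier, had 5630.1 and 4081 in KO and 6884, 7284 and 8795 in WT, again apart (-0.67 ± 0.20, adjusted p by limma = 0.133). Without KO 2, which leaves KO 1 as the only KO sample, it was -0.43. Pdk2 lay the other way, with 5524 and 6996 in KO and 4737, 4854 and 2621 in WT (0.66 ± 0.31, and 0.37 ± 0.16 without WT 3).

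Pdk4 in adipocytes had 6916 and 18830.2 normalised reads in KO, against 9677, 12666 and 13746 in WT: KO 1 lay below and KO 2 above all WT samples. Its log2 change was -0.06 ± 0.43 (SE), -0.78 ± 0.27 without KO 2 and 0.66 ± 0.27 without KO 1, each resting on a lone KO sample assumed to vary like the others. Pdk3 had 266 and 324 in KO and 543, 439 and 354 in WT, with no overlap (-0.58 ± 0.23, limma adjusted p = 0.197). Pcx had 121039 and 114628 in KO and 103809.8, 110177 and 69025 in WT, both KO samples above the WT samples, of which WT 3 was far lowest (0.35 ± 0.26, and 0.14 ± 0.17 without it). Idh2 overlapped at 4789.9 and 6671 in KO and 7280.2, 6200.4 and 4765 in WT. Endothelial markers summed to 11784 to 27930 normalised reads in KO and 1653 to 3058 in WT adipocytes, 4 of 4 being higher in KO. Mesothelial markers summed to 882.5 to 1342 in KO and 104.5 to 548.5 in WT, also 4 of 4 higher in KO. Macrophage markers summed to 17770 in WT 3, against 2145 and 1544 in WT 1 and WT 2. In KO 1 and KO 2 they summed to 8781 and 3386, and 3 of 7 were higher in KO. Brown adipocyte markers summed to 441.6 to 1475 in KO and 1481 to 2254 in WT, with 1 of 6 higher in KO. Stromal markers summed to 15383 to 15619 in KO and 17468 to 24470 in WT, although 3 of 4 were higher in KO. Higher in KO were also 6 of 9 adipocyte, 5 of 5 B cell and 3 of 4 T cell markers. So were 4 of 5 epithelial, 5 of 5 epididymal and 4 of 9 skeletal muscle markers. The part of these lists in the members' values in Adipo was not tested.

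In inguinal fat of the stimulation series (BA), 4 of 12377 genes, or 0.0323%, were called by limma and none was a member (edgeR called 1 gene and 0 members; 1118 genes, 9.03%, and 2 members, Suclg2 and Got2, had an unadjusted p under 0.05). Got2 had 301, 356, 355 and 338 normalised reads in BA KO fat, against 241, 241, 243 and 208 in BA WT fat, every KO sample being above every WT sample (3.26% of all genes were separated this way). The log2 change was 0.53 ± 0.11 (SE, n = 4 each, limma adjusted p = 0.116). Epithelial markers summed to 10.6 to 20 reads in KO and 4.42 to 33.3 in WT, and the part of cell makeup in this change was not tested. Suclg2 was separated the other way, with 1041, 994, 823 and 864 in KO and 1197, 1244, 1165 and 1322 in WT (2.23% of all genes), at -0.41 ± 0.12 (limma adjusted p = 0.272).

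The largest negative log2 changes in BA were those of Sucla2 and Suclg1, which form one succinyl-CoA synthetase. Sucla2 had 11077, 8164, 5009.8 and 7492 normalised reads in BA KO fat, against 6211, 8257, 15509 and 20803 in BA WT fat, while Suclg1 had 6905, 5544, 3501 and 6094 in KO, against 4388, 6889.9, 9784 and 12282 in WT. In both, WT 3 and WT 4 were high and WT 1 and WT 2 lay among the KO samples, and the log2 changes of -0.57 ± 0.38 and -0.54 ± 0.32 (SE) did not pass (limma adjusted p = 0.747 and 0.691). Without WT 4 they were -0.28 ± 0.35 and -0.32 ± 0.31.

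Pdk4 in BA had 7287, 8879.5, 4112 and 7291 normalised reads in KO fat, against 3094, 6825, 8134 and 20903 in WT fat. WT 4 stood far above the rest, and the log2 change of -0.22 ± 0.49 (SE) turned to 0.26 ± 0.37 without it. Pcx had 46629.5, 58308, 68194 and 52519.9 in KO and 57379, 51031, 36995 and 29593 in WT (0.40 ± 0.24, and 0.23 ± 0.22 without WT 4), here with WT 4 and WT 3 lowest. Pdk3 at 30.6, 32.4, 41.2 and 40.7 in KO and 62.5, 38.4, 43.3 and 33 in WT, and Idh2 at 2257, 2658, 1901 and 2605 in KO and 2679, 3264, 2615 and 2618 in WT, overlapped.

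Over the list in BA, 8 members were positive and 22 negative, with a median of -0.13 beside 0.01 over all genes (51.3% positive). Their levels ran beside those of the 6 brown adipocyte markers, which summed to 43855, 33218, 13004 and 37592 normalised reads in BA KO 1 to KO 4, against 20239, 36158, 65900 and 96652 in BA WT 1 to WT 4. The members' median deviation from the table mean was 0.17, -0.04, -0.28 and -0.09 on the log2 scale in those KO samples, against -0.25, -0.07, 0.24 and 0.32 in the WT samples. WT 4 was the highest sample for 15 members, and KO 3 the lowest for 10; the part of brown adipocytes in the members' values was not tested. The 9 adipocyte markers were all higher in KO and their sums did not overlap (565160 to 841542 normalised reads in BA KO fat and 476943 to 519202 in BA WT fat). Likewise 7 of 7 macrophage markers were higher in KO (6019 to 9588 in KO and 4828 to 7402 in WT). Higher in KO were also 4 of 4 T cell, 4 of 4 endothelial, 5 of 9 skeletal muscle and 3 of 5 epithelial markers. It was 1 of 6 for brown adipocyte, 0 of 5 for B cell and 1 of 4 each for stromal and mesothelial markers. Skeletal muscle markers summed to 2774 in KO 3, against 50.7 to 96.3 in the other KO samples, and to 2685 in WT 2, against 49.2 to 172 in the other WT samples. The part of these lists in the members' values was not tested either. Suclg2 and Got2 did not follow this order: their 4 WT samples lay between 1165 and 1322 and between 208 and 243 normalised reads.

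**Figure D3:**
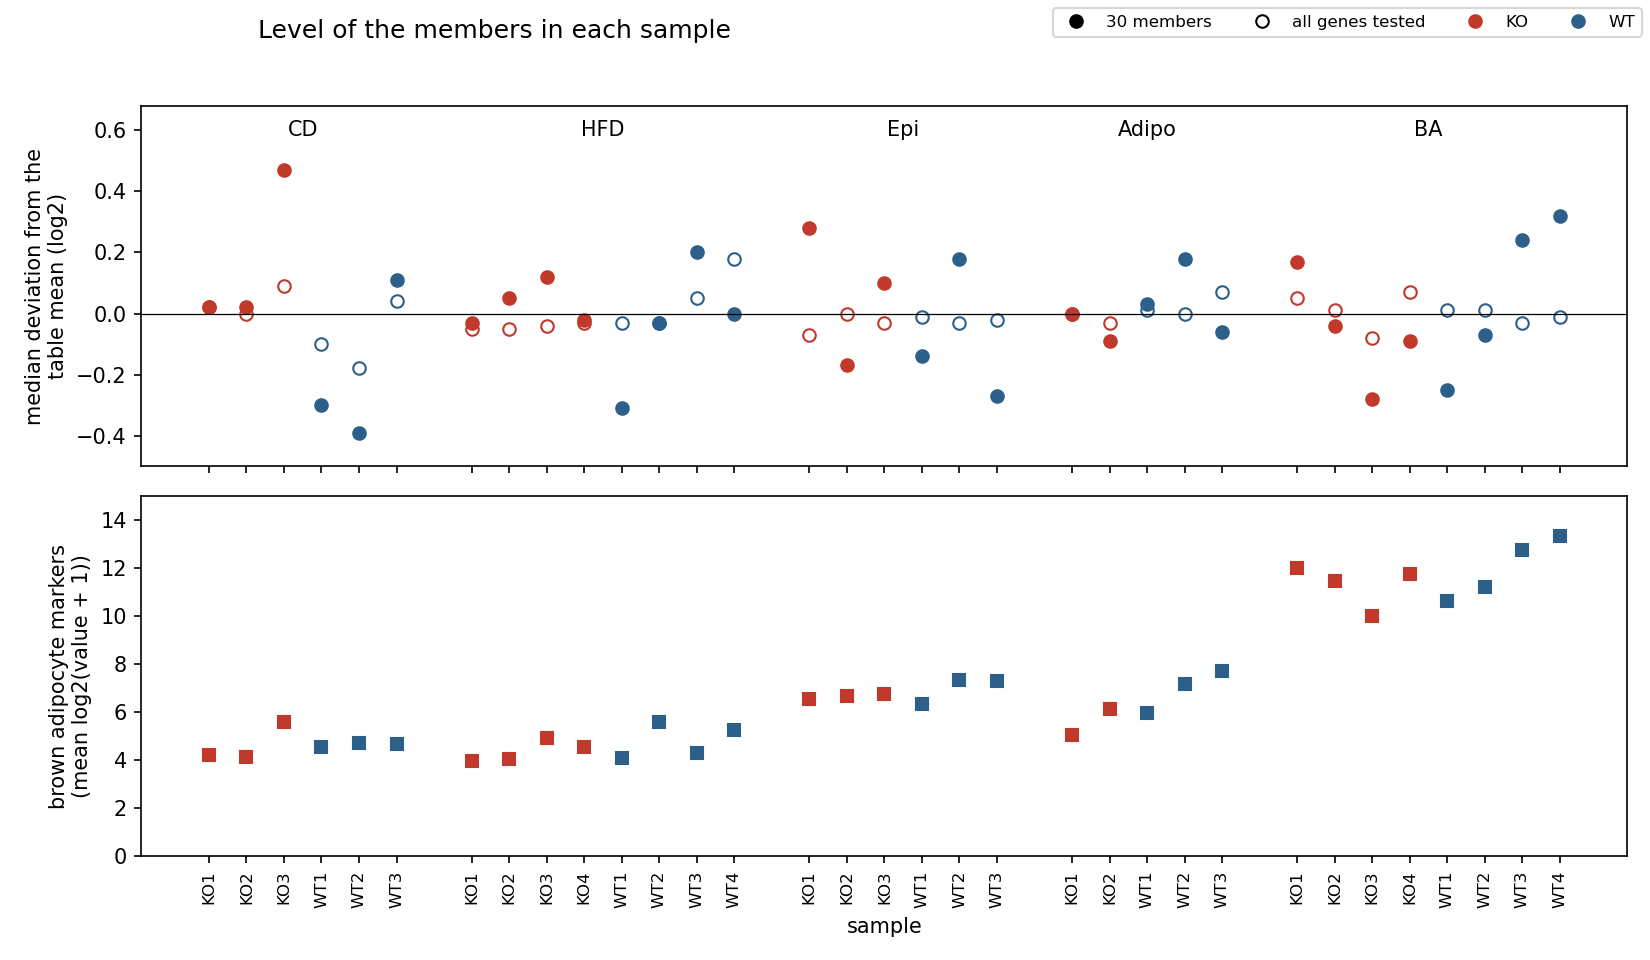
Upper panel, median deviation of the 30 members (filled) and of all genes tested (open) from the table mean, on the log2 scale, in each KO (red) and WT (blue) sample; lower panel, mean log2(value + 1) of 6 brown adipocyte markers. In BA the 2 samples highest in the members, WT 3 at 0.24 and WT 4 at 0.32, are also highest in the markers, at 12.76 and 13.35.

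Whether the effect of genotype differed between tables was tested in a fit over both tables, and no member passed. For HFD minus Epi the smallest adjusted p by limma was 0.0924, for Idh2, with a difference of -0.92 ± 0.19 (SE) between a change of -0.58 ± 0.12 in HFD and 0.34 ± 0.16 in Epi; 0 of 13942 genes (0%) passed. For HFD minus CD the smallest was 0.178, for Pdk1, with a difference of -0.89 ± 0.22 (0 of 13749 genes, 0%). For HFD minus BA it was 0.224 for Suclg2, with 0.42 ± 0.15 (46 of 12079 genes, 0.381%). For Adipo minus Epi it was 0.349 for Suclg1, with -0.43 ± 0.19 (234 of 14033 genes, 1.67%). With Epi and Adipo samples of the same genotype and number as a block, 228 genes and 0 members passed for Adipo minus Epi, and the smallest adjusted p of a member by limma was 0.258, for Mpc2, with -0.70 ± 0.26.

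Pdk4, the member with the smallest p in HFD, passed none of these tests. The difference was -0.08 ± 0.38 (SE) for HFD minus CD, -0.21 ± 0.28 for HFD minus Epi and -0.51 ± 0.55 for HFD minus BA, with limma adjusted p of 0.927, 0.723 and 0.692. A lower Pdk4 in KO is thus called in HFD and is not shown to differ from CD, Epi or BA, where the standard errors were 0.28 to 0.49. At an unadjusted p under 0.05 there were 3 of 30 members for HFD minus Epi, beside 2384 of 13942 genes. There were 4 for HFD minus CD, beside 2384 of 13749 genes, and 4 for HFD minus BA, beside 1635 of 12079 genes. For Adipo minus Epi there was 1, beside 1906 of 14033 genes.

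Within the family of 4 kinases, Pdk2 was the most abundant per kilobase in CD and HFD, and Pdk4 took a larger share in Epi, Adipo and BA. In HFD, Pdk4 made up 19.0, 18.9, 20.7 and 20.4% of the summed kinase transcripts in KO fat, against 29.2, 30.7, 24.1 and 22.5% in WT fat, so that the highest KO sample lay below the lowest WT sample. Pdk2 made up 65.7 ± 1.65% in KO and 60.1 ± 3.79% in WT (SD, n = 4 each), Pdk1 9.56 ± 1.01% in KO and 7.03 ± 1.29% in WT and Pdk3 5.01 ± 0.459% in KO and 6.21 ± 0.6% in WT. In CD, Pdk1 made up 17.2, 16.8 and 17.1% in KO fat, against 6.96, 9.78 and 11.1% in WT fat, again with no overlap.

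In Epi the Pdk4 share was 24.4, 40.7 and 41.3% in KO and 42.7, 52.3 and 60.2% in WT, and the groups did not overlap. In Adipo it was 40.8 and 60.6% in KO and 51.3, 58.3 and 72.3% in WT, and they did. In BA it was 46.5 ± 5.65% in KO and 49.2 ± 13.7% in WT (SD, n = 4 each). Shares of 4 genes sum to a whole, so a lower share of Pdk4 is not separate from the higher shares of the others. No background of shares was computed for the separations in HFD, CD and Epi. In Epi the separation was narrow, and the reads of Pdk4 itself overlapped.

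**Figure D4:**
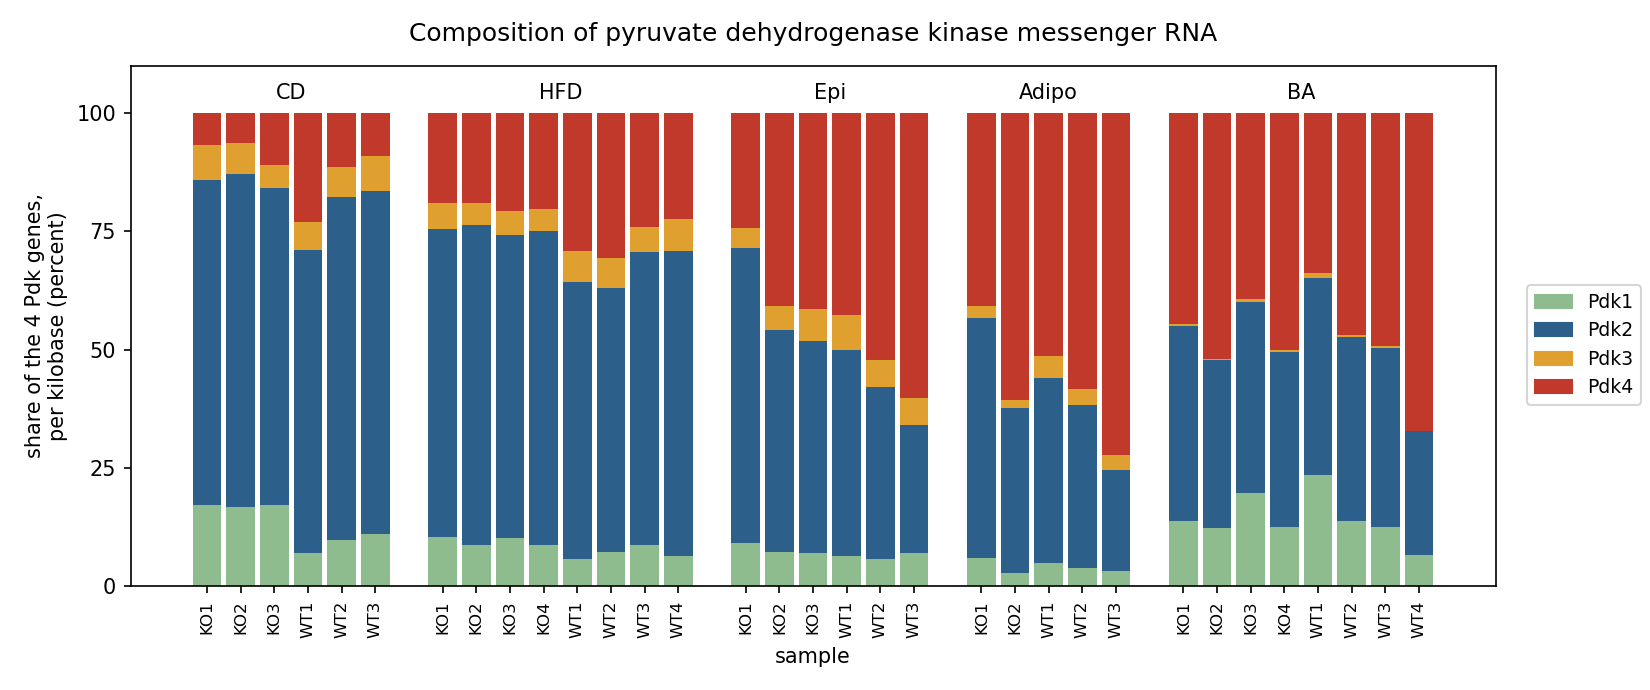
Share of each of the 4 Pdk genes in their summed normalised reads per kilobase (percent) in every KO and WT sample of the 5 tables. Pdk4 takes 18.9 to 20.7% in HFD KO fat and 22.5 to 30.7% in HFD WT fat, and more in Epi, Adipo and BA.

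Ratios between partner enzymes do not depend on the scaling between samples, and they were compared as a description: of 20 ratios (4 pairs of genes in 5 tables) 6 did not overlap between the groups. By table these were 1 of 4 in HFD, 3 of 4 in Epi, 2 of 4 in Adipo and 0 of 4 in CD and in BA. Single genes did not overlap for 14.0% of all genes in HFD, 16.5% in Epi, 48.0% in Adipo, 16.9% in CD and 5.49% in BA. No background of ratios was computed. Idh1, the cytosolic NADP-dependent isocitrate dehydrogenase, over the mitochondrial Idh2 stood at 2.13, 1.56, 1.86 and 1.93 per kilobase in HFD KO fat, against 0.845, 1.17, 1.21 and 0.864 in HFD WT fat. The 2 groups were well apart in HFD, and in the other 4 tables they overlapped, with means of 1.52 ± 0.461 in KO and 2.05 ± 0.53 in WT in Epi (SD, n = 3 each). The HFD ratio holds both the lower Idh2 and an Idh1 that did not pass, at 0.31 ± 0.14.

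Suclg2 over Sucla2 was 0.267, 0.22 and 0.228 in Epi KO fat, against 0.147, 0.14 and 0.114 in Epi WT fat, and 0.285 and 0.214 in Adipo KO cells, against 0.189, 0.179 and 0.105 in Adipo WT cells. The groups overlapped in neither of these tables and in each of CD, HFD and BA, with means of 0.224 ± 0.0265 in KO and 0.201 ± 0.0243 in WT in HFD (SD, n = 4 each). Mdh1 over Mdh2 was lower in KO without overlap in the same 2 tables, at 1.07 ± 0.0778 in KO and 1.25 ± 0.0809 in WT in Epi and 1.08 ± 0.00369 in KO and 1.34 ± 0.105 in WT in Adipo (SD). In BA its mean was higher in KO, at 0.881 ± 0.0688 in KO and 0.707 ± 0.0942 in WT (SD), and the groups overlapped. They overlapped in CD and HFD as well. Got1 over Got2 was 0.399 ± 0.0172 in KO and 0.661 ± 0.196 in WT in Epi, the last of the 6. Epi and Adipo samples of the same number deviated alike from their group means (r across genes from 0.162 to 0.699), so the 2 tables may share animals and are not taken as independent. Samples of unlike number were not compared between these tables.

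**Figure D5:**
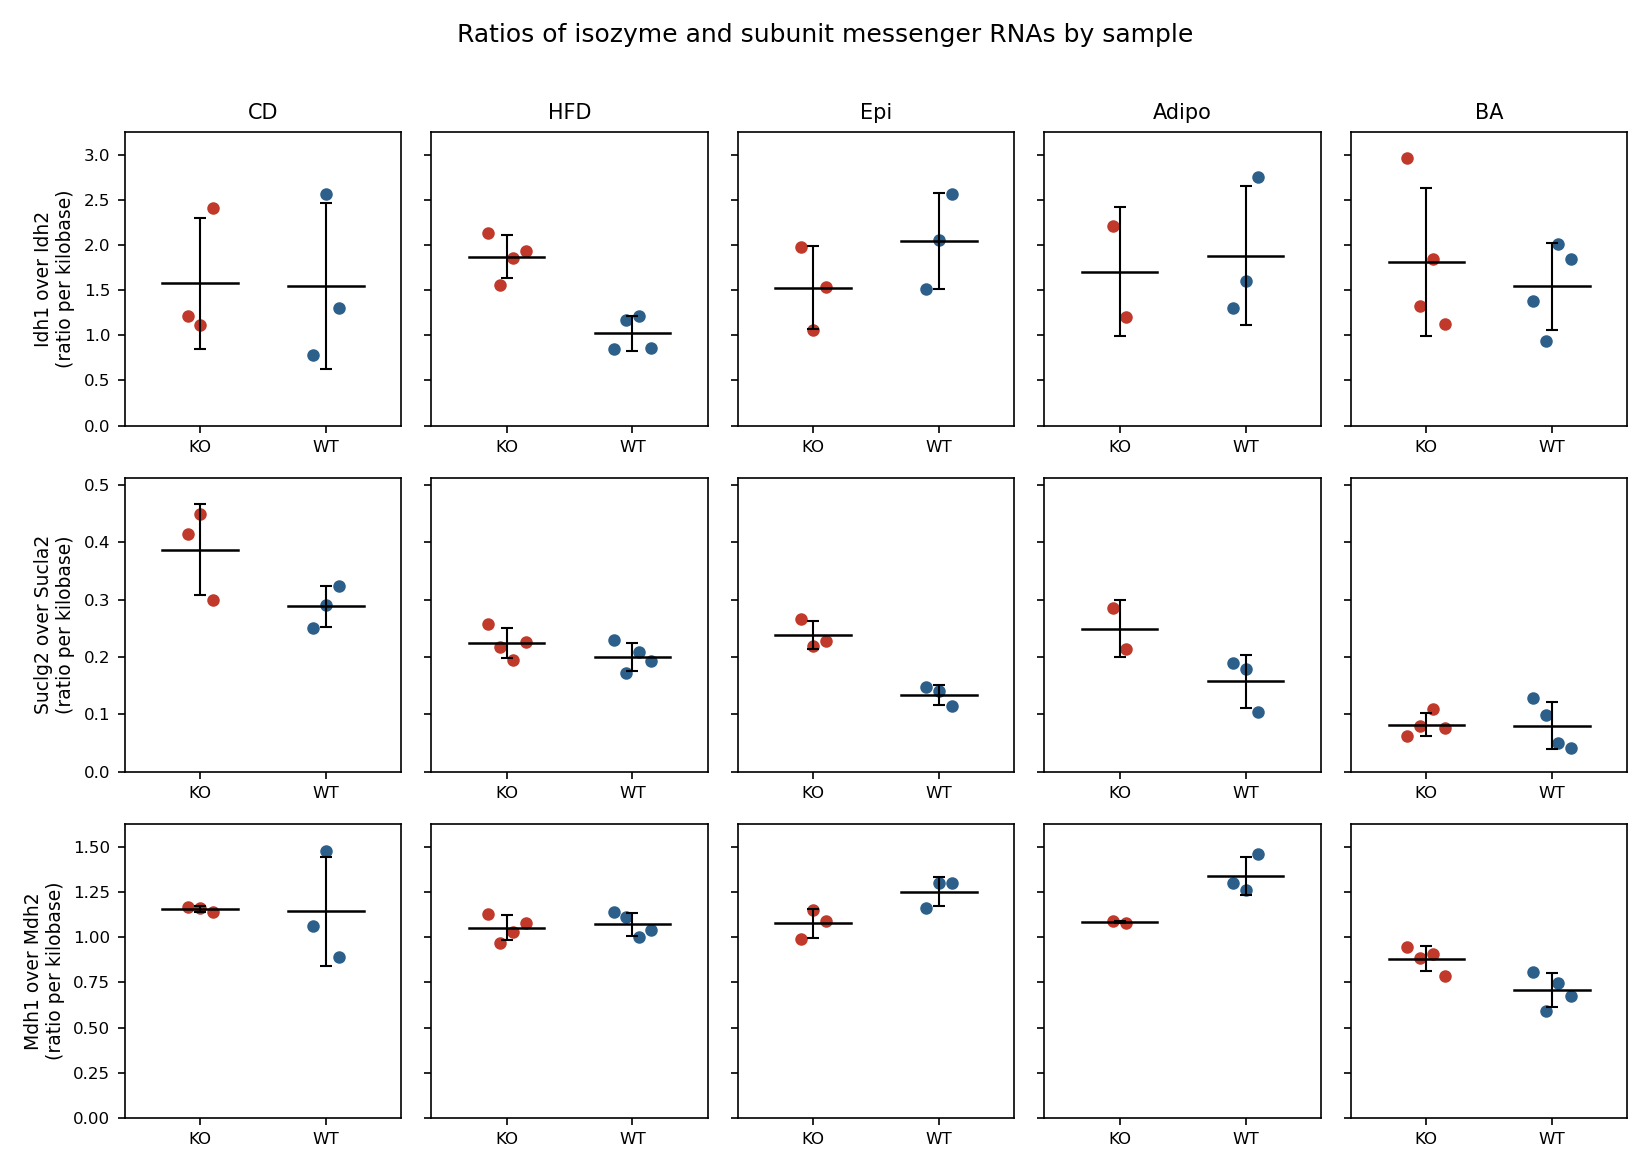
Ratios per kilobase of Idh1 to Idh2, Suclg2 to Sucla2 and Mdh1 to Mdh2 in each KO (red) and WT (blue) sample of the 5 tables; lines are means and bars SD. Idh1 over Idh2 is 1.56 to 2.13 in HFD KO fat and 0.845 to 1.21 in HFD WT fat, and Suclg2 over Sucla2 does not overlap between genotypes in Epi and Adipo.

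A further 36 genes of the same metabolism (other subunits of these enzymes, succinate dehydrogenase and its assembly factors, malic enzymes, citrate and other carriers, lactate dehydrogenase and lipoylation enzymes) were counted beside the members. In HFD 1 of 36 (2.78%) fell and 0 rose, a share near the 2.46% of all genes that were called lower. That gene was Ldhb, the lactate dehydrogenase subunit that favours pyruvate formation. It averaged 701 ± 35.2 in KO and 983 ± 126 in WT normalised reads (SD, n = 4 each), a log2 change of -0.48 ± 0.10 (SE, limma adjusted p = 0.0352). In CD and Epi 0 of 36 passed, and in Adipo and BA 0 of the 34 that were tested. The median log2 change over these genes was 0.34 for CD, 0.04 for HFD, 0.14 for Epi, -0.07 for Adipo and 0.05 for BA.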

How the data were processed

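Poly(A) messenger RNA of mouse fat and adipocytes was sequenced from strand-specific libraries, per the labels' protocols. What the authors deposited is, for each Ensembl transcript and library, a signal: a number of reads scaled by a factor of that library. GRCm38.p4, DESeq 1.8.3, HTSeq 0.5.3, STAR 2.4.0k, SAMtools and bcl2fastq 2.17 are listed in the submitters' processing notes without their roles. In 96 of 99 libraries the deposited signal gave whole reads for 100% of values, within 0.01 of a read; in 3 (1 each of HFD KO 2, HFD WT 4 and BA WT 4) it did not, and the read totals of those replicates cover 3 of 4 libraries. A further 1 column of the Adipo table, whose name marks it as a WT replicate 4, matched no sample and was not used, and the third sample labelled KO for those cells was not analysed here and may or may not be that column.

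GENCODE M21 on GRCm38 gave symbols and positions, and 1 transcript was taken per gene, that of highest mean. The 4 libraries of a CD, HFD or BA replicate agreed to near the sampling noise, and their mean was used as 1 sample. KO and WT were tested within a table with limma 3.58.1 (R 4.3.3; moderation with trend and robust) after log2(value + 1), for genes whose mean reached 10, with Benjamini-Hochberg adjustment over all genes at 0.05; fold changes on this scale understate those of low genes. Alternatives were edgeR 4.0.16 on recovered reads, TMM scaling, pseudocounts of 0.5 and 5, no filter or a minimum of 50, no moderation, transcripts summed, a replicate block and left-out replicates. The scripts were tested on simulated data. KO and WT samples of the same number were not taken as pairs. Epi and Adipo samples of the same genotype and number deviated alike in 5 of 5 pairs (r from 0.162 to 0.699) and were taken as a block in an alternative added after seeing the data. Samples of unlike number were not compared between Epi and Adipo, so this likeness is not shown to belong to the number. The deviations of the 2 Adipo KO samples from their mean mirror each other, so the 5 pairs are not separate.

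The members and lists were chosen with earlier results of these data known. Values in every sample are given for members that passed in any table, for the 3 of largest log2 change in each table and for Pdk4 and Pcx; other members are given by counts and ranges, or named for groups that did not overlap after their values were seen.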

Additional observations from a re-analysis of the deposited data

Results flagged for a closer look

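Of 120 groups of 4 samples (the 30 members in KO and WT of HFD and BA, and no other table has groups of 4), 7 held a sample whose gap to the nearest of the others was large against the range of its group; chance flags about 1 in 20 groups. In HFD, Pdp1 stood at 152 normalised reads in KO 2, against 182 to 188 in the other KO samples, and Suclg2 at 727.5 in KO 1, against 648 to 658. Sucla2 stood at 1715 in HFD WT 1, against 2358 to 2427 in the other WT samples; WT 1 is the sample lowest for 19 of 30 members. In BA, KO 3 was low for Pdp1, at 64.6 against 71.4 to 72.8 in the other KO samples, and for Idh3g, at 5844 against 8174 to 8354; it also had the lowest sum of brown adipocyte markers. Skeletal muscle markers summed to 2774 normalised reads in BA KO 3 and 2685 in BA WT 2, against 49.2 to 172 in the other BA samples; their part in these values was not tested. Idh2 stood at 3264 in BA WT 2, against 2615 to 2679, and Got2 at 208 in BA WT 4, against 241 to 243. None of these 7 values is of Pdk4 or Pdk3, and none is of Idh2 in HFD.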

How the results depend on the processing

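In HFD the count of called members was 3 in the main test and 3 with edgeR, TMM scaling, either pseudocount and a minimum of 50. It was 2 without trend and robust moderation and 2 with transcripts summed. It was 1, Pdk4, with no filter (328 genes called in place of 484), with the replicate block (268 genes called) and with WT 1 and KO 1 left out together, and from 1 to 4 with each replicate left out. With the block Pdk3 and Idh2 had limma adjusted p of 0.0723 and 0.0743; KO and WT samples of the same number share only that number, since in no table did every pair deviate together (r from -0.575 to 0.581), nor did each sample correlate best with its own number in CD, HFD, Epi or BA. Genes called in HFD ranged from 126 (without KO 4) to 1166 (without WT 1), and in Adipo from 0 (no trend or robust moderation) to 1395 (replicate block), against 90 in the main test, with 378 under no filter and 143 under TMM scaling. In BA edgeR and TMM scaling each called 1 gene, no filter and no moderation 2 and summed transcripts 7, against 4 in the main test. With the block of KO and WT numbers the genes called were 744 for Adipo minus Epi, against 234, and 13 for HFD minus BA, against 46. In CD 637 genes were called without KO 3 and 1 without moderation, and in Epi 22 without KO 1 and 1 without KO 2, against 0 in the main test of each. In CD, Epi, Adipo and BA the member count was 0 under each alternative run, the replicate block included. For the difference HFD minus CD it was 0, and 3 (Got2, Pdk1 and Pdk3) without CD KO replicate 3, which leaves KO 1 and KO 2, the pair with epididymal reads; left-out replicates gave 0 to 3 there and 0 for the other differences. TMM scaling moved the median difference of all genes for HFD minus CD to 0.02, against -0.18. Without CD KO 1, KO 2 and WT 2, an alternative added after seeing the data, Got2 in CD was at 0.02 and Pdk3 at -0.37. Both rest on KO 3 as the only KO sample. Of 30 members, the sign of the log2 change was kept under all alternatives by 24 for HFD, 22 for BA, and 20 each for CD, Epi and Adipo. Groups of 2 to 4 samples, and a lone KO sample in some alternatives, limit the precision of each value.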
